A study of Homo sapiens with 12 samples.

Results

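NF-kappaB subunits and their feedback regulators were followed at the mRNA level in NCI-H1975, a line of human lung adenocarcinoma whose EGFR is mutant (L858R and T790M), under erlotinib, quinacrine or both compounds. The 10 genes were chosen by name: the subunits NFKB1, NFKB2, RELA and RELB, the inhibitors and feedback regulators NFKBIA, BCL3, TNFAIP3 and TNIP1, and the ubiquitin ligases BIRC2 and BIRC3. Earlier results of these arrays were known at that choice. Counts and medians of the set, given beside those of all genes, are therefore no independent evidence. Of the 10, 9 had a named row among the 22395 named genes of the arrays, each with a single row. Of the 9, 8 were among the 5820 genes tested, those with a log2 level of 5 or more on average. RELB, with a mean of 4.61, lay under that filter and is given by its levels, and BIRC3 was not analysed here. Total RNA was read on 12 Human Gene 2.1 ST arrays of Affymetrix, which give each gene a normalized log2 expression level. All cells carried the same EGFR changes: 1 array was of untreated cells, with no time in its label, 4 were of cells in 1 µM erlotinib (6, 12, 24 and 48 h), 3 of cells in 3 µM quinacrine (6, 12 and 24 h) and 4 of cells in the same doses of both compounds together (6, 12, 24 and 48 h), called the combination below. Each treatment and time had 1 array, so n counts time points, and an SD is the spread over time points. Whether the arrays stand for separate cultures is not in the labels, and p-values therefore reflect the spread among these arrays alone, which may be technical. The cells were 1 established line, and a level per array cannot tell fewer cells with a transcript from less transcript per cell.

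NF-kappaB is a family of dimeric transcription factors that are held in the cytoplasm by inhibitor proteins until the IKK kinase complex marks those inhibitors for degradation. The freed dimers enter the nucleus and switch on genes of inflammation, adhesion and survival, among them the genes of their own inhibitors, which closes a negative feedback loop. A slower non-canonical branch runs through processing of the NFKB2 precursor, whose product pairs with RELB, and is kept in check by the ligases that BIRC2 and BIRC3 encode. In lung adenocarcinoma with a mutant EGFR, NF-kappaB activity is known as a survival signal beside EGFR. Erlotinib is an inhibitor of the EGFR kinase, to which T790M confers resistance. Quinacrine is an old antimalarial, and the title of the series names FACT, NF-kappaB and the cell cycle as what it inhibits. The comparison here concerns how the mRNAs of the pathway's own components stood with and without quinacrine. The arrays read mRNA, not protein, nuclear entry or DNA binding.

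The promoters are shown because several of these genes are textbook targets of the factors they encode or restrain. RefSeq promoter windows (GRCh38.p14, 250 bases before to 50 after a start site) were found for 9 of the 10 genes, in 15 windows. RELB is not in the table. The kappaB consensus, searched by name in its degenerate 10-base form on both strands, was found in 8 of the 15 windows and in 7 genes: TNFAIP3, NFKBIA, TNIP1, NFKB1, NFKB2, BIRC3 and BCL3. It was found in 2075 of all 35116 promoter windows of the table, or 5.91%. For TNFAIP3 and NFKBIA the 250 bases before the start site are printed, and for the others 10 bases lie on each side of a match. Sequences run 5′ to 3′ on the strand of the gene, and capitals mark the matches.
TNFAIP3: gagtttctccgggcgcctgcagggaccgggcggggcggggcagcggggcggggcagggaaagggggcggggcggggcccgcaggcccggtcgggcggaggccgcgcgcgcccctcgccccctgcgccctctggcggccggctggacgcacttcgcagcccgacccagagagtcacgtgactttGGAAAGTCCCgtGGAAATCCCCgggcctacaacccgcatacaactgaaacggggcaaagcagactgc
NFKBIA: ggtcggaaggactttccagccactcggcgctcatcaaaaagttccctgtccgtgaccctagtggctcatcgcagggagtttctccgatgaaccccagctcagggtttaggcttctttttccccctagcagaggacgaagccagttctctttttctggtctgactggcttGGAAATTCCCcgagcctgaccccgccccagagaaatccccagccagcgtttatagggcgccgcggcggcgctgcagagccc
TNIP1 site: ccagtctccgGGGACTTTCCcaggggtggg
NFKB1 site: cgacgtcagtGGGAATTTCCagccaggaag
NFKB2 upstream site: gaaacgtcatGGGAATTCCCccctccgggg
NFKB2 middle site: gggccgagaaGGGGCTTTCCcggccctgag
NFKB2 downstream site: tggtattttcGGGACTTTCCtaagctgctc
BIRC3 site: tttgggtcatGGAAATCCCCgagtgggttt
BCL3 site: ccggctgcagGGGAAGTCCCggcgcccggc
TNFAIP3's stretch is chr6:137867009-137867258 on the plus strand, with matches 67 to 58 and 55 to 46 bases before the start site, separated by a few bases and both reading on the opposite strand. NFKBIA's is chr14:35404750-35404999 on the minus strand, with its match 81 to 72 bases before the start. TNIP1's match lies 42 to 33 bases before the start, in chr5:151080985-151081284 on the minus strand. The match of NFKB1 lies 49 to 40 bases before the start, in chr4:102501109-102501408 on the plus strand. NFKB2's upstream and middle matches (107 to 98 and 78 to 69 bases before the start) lie in chr10:102394328-102394627 and its downstream match (21 to 12) in chr10:102395455-102395754, both on the plus strand. The upstream match is a palindrome that reads on both strands and overlaps another match shifted by a single base. The window of NFKB2's downstream match has a further match 176 to 167 bases before the start. BIRC3's site lies 199 to 190 bases before the start, with a second match at 135 to 126 (chr11:102317234-102317533, plus strand), and BCL3's lies 3 to 12 bases after it (chr19:44748458-44748757, plus strand). The letters of a match describe sequence and not binding in these cells, and the windows of BIRC2 and RELA held no match.

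The label of the cells was checked against marker genes. Of 8 epithelial markers, 6 averaged at least 5 (KRT7, KRT19, EPCAM, CDH1, EGFR and MET), with KRT18 at 4.71 and KRT8 at 2.81. No fibroblast marker of 5 and no endothelial marker of the 3 with a row reached 5, and of 10 leukocyte markers CD79A (7.47) and CSF1R (6.44) did, against a median of 1.35. Summed levels of the leukocyte markers were 22.65 in the untreated array, 23.14 to 24.76 with erlotinib, 23.45 to 24.25 with quinacrine and 23.07 to 25.38 with the combination. Summed fibroblast levels were 7.72, 6.70 to 7.33, 6.29 to 6.84 and 6.17 to 7.60 in the same order, and summed endothelial levels 5.76, 5.55 to 7.33, 6.01 to 8.05 and 6.15 to 8.76. The leukocyte sums hold CD79A, which was 7.30, 7.47, 8.13 and 9.03 with erlotinib, 7.12 to 7.41 with quinacrine and 7.10, 7.36, 6.79 and 7.01 with the combination, against 7.60 untreated. CSF1R was 5.95 to 6.55 with erlotinib, 6.13, 6.49 and 6.86 with quinacrine and 6.34, 6.51, 6.86 and 7.09 with the combination, against 6.12 untreated. At 24 and 48 h CD79A was thus higher with erlotinib and CSF1R higher with the combination. PTPRC, the defining leukocyte marker, averaged 0.89, and the part of these markers in the results below was not tested. The combination array at 6 h stood apart, with the lowest median correlation with the other arrays (0.955, highest array 0.981). Its differences from the untreated array, taken gene by gene, had a median of -0.21 over the tested genes. It also had the narrowest interquartile range of levels (2.04, the others 2.26 to 2.88). The erlotinib array at 12 h had the next narrowest range (2.26). Results that rest on these arrays are given below without them.

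TNFAIP3, which encodes a ubiquitin-editing enzyme that shuts off signalling to IKK, had the widest range of the 9 genes, 3.17 log2 units over the 12 arrays. Its level was 7.53 in untreated cells, 7.41, 6.56, 5.53 and 5.76 with erlotinib at 6, 12, 24 and 48 h, 7.79, 7.55 and 8.17 with quinacrine at 6, 12 and 24 h, and 7.53, 7.52, 8.14 and 8.70 with the combination at 6, 12, 24 and 48 h. All 4 erlotinib arrays lay below the untreated array and below all 7 arrays with quinacrine, and the groups with quinacrine overlapped. At matched times the combination exceeded erlotinib by 0.12, 0.96, 2.61 and 2.94, the last being 7.67-fold. Quinacrine alone exceeded erlotinib by 0.38, 0.99 and 2.64, and the combination differed from quinacrine by -0.26, -0.03 and -0.03. TNIP1, which encodes a partner protein of the TNFAIP3 product, followed a like order over a narrower range. Its level was 6.63 untreated, 6.62, 6.28, 6.49 and 6.43 with erlotinib, 6.75, 6.70 and 7.03 with quinacrine, and 6.53, 6.89, 6.98 and 7.12 with the combination. From 12 h on every array with quinacrine was above every erlotinib array, while at 6 h the combination was the lowest of the treated arrays.

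**Figure D1:**
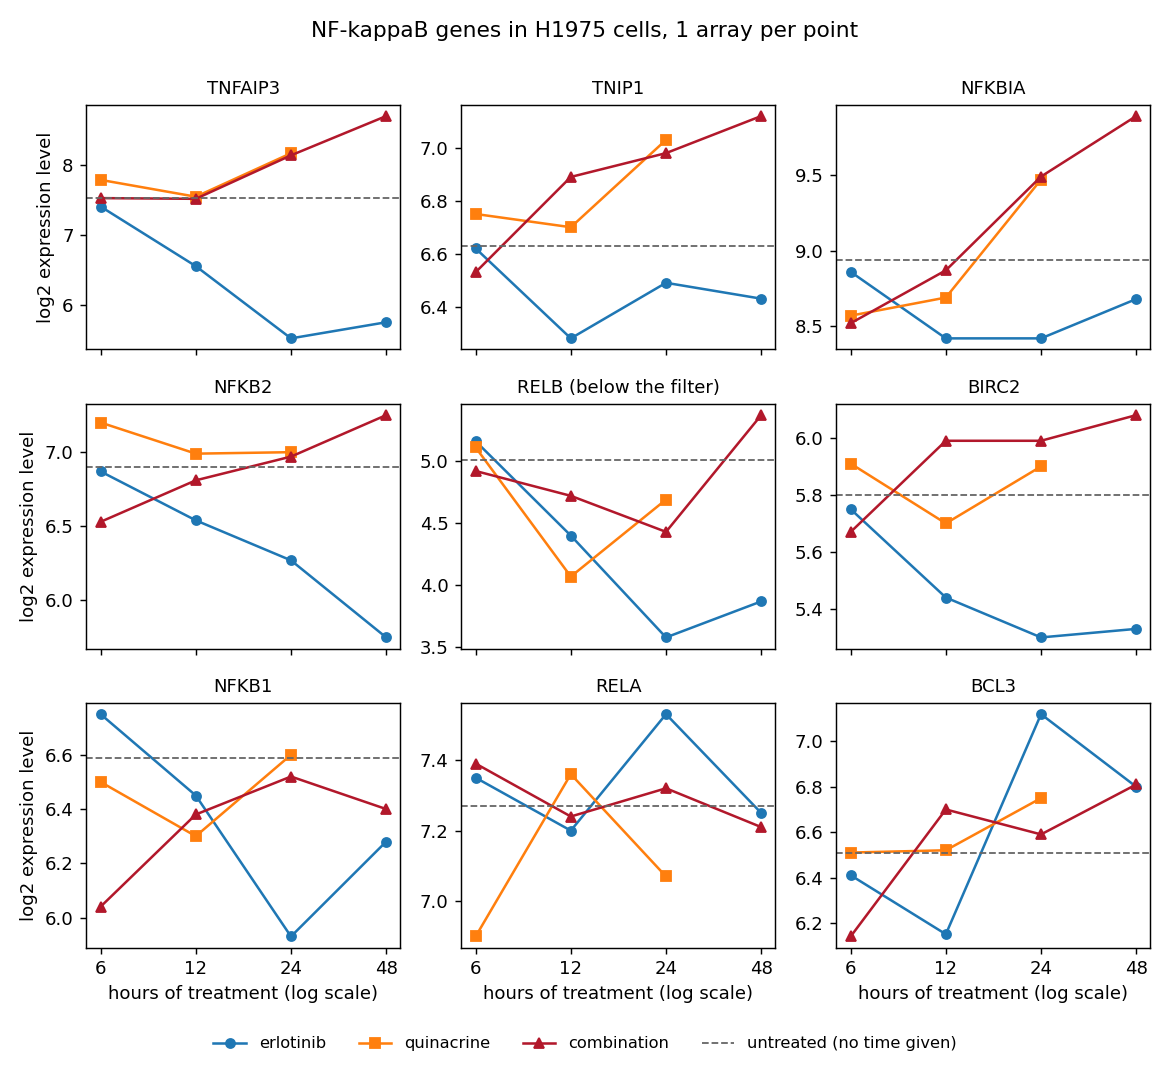
log2 expression level (vertical axis) against treatment time in h (horizontal axis, log scale) for each of the 9 genes, with 1 array per point, lines for erlotinib, quinacrine and the combination, and a dashed line at the untreated array. The erlotinib line of TNFAIP3 runs from 7.41 at 6 h to 5.76 at 48 h and its combination line from 7.53 to 8.70.

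NFKBIA, which encodes the inhibitor IκBα that retains the dimers in the cytoplasm, measured 8.94 untreated, 8.86, 8.42, 8.42 and 8.68 with erlotinib, 8.57, 8.69 and 9.47 with quinacrine, and 8.52, 8.87, 9.49 and 9.89 with the combination. The arrays with quinacrine were at 9.47 or above at 24 and 48 h and at 8.87 or below earlier, and the earlier arrays overlapped the erlotinib range. The combination minus erlotinib was -0.34, 0.45, 1.07 and 1.21 over the 4 times. BCL3, an IκB-like nuclear protein that binds dimers of the NFKB1 and NFKB2 products, had no such order. Its level was 6.51 untreated, 6.41, 6.15, 7.12 and 6.80 with erlotinib, 6.51, 6.52 and 6.75 with quinacrine, and 6.14, 6.70, 6.59 and 6.81 with the combination, and all groups overlapped. Its highest value was the erlotinib array at 24 h, where the combination lay 0.53 lower.

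Among the subunits, the pair of the non-canonical branch had the lowest values relative to the untreated array under erlotinib (-1.15 for NFKB2 at 48 h and -1.43 for RELB at 24 h). NFKB2 measured 6.90 untreated, 6.87, 6.54, 6.27 and 5.75 with erlotinib, 7.2, 6.99 and 7.0 with quinacrine, and 6.53, 6.81, 6.97 and 7.25 with the combination. Its erlotinib values were lower at each later time and its combination values higher, and the 2 groups overlapped through the 6 and 12 h arrays. The combination minus erlotinib was -0.34, 0.27, 0.70 and 1.50. RELB measured 5.01 untreated, 5.16, 4.40, 3.58 and 3.87 with erlotinib, 5.11, 4.07 and 4.69 with quinacrine, and 4.92, 4.72, 4.43 and 5.37 with the combination. Its combination minus erlotinib differences were -0.24, 0.32, 0.85 and 1.50, at levels near or below 5. In a fit without the filter on low levels this averaged 0.61 (SE 0.29, limma adjusted p = 0.4904). NFKB1, which encodes the precursor of a canonical subunit, measured 6.59 untreated, 6.75, 6.45, 5.93 and 6.28 with erlotinib, 6.50, 6.30 and 6.60 with quinacrine, and 6.04, 6.38, 6.52 and 6.40 with the combination. All its groups overlapped, and the erlotinib array at 24 h was the lowest. RELA, the transactivating subunit of the canonical dimer, had levels from 7.2 to 7.53 with erlotinib, 6.90 to 7.36 with quinacrine and 7.21 to 7.39 with the combination, against 7.27 untreated. The combination minus erlotinib was 0.04, 0.04, -0.21 and -0.04 for RELA.

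BIRC2, a ubiquitin ligase that acts at tumour necrosis factor receptors and restrains the non-canonical branch, measured 5.80 untreated, 5.75, 5.44, 5.30 and 5.33 with erlotinib, 5.91, 5.70 and 5.90 with quinacrine, and 5.67, 5.99, 5.99 and 6.08 with the combination. From 12 h on all arrays with quinacrine lay above all erlotinib arrays. The combination minus erlotinib was -0.08, 0.55, 0.69 and 0.75. The differences at matched times thus split the genes: from 12 h on, TNFAIP3, NFKBIA, NFKB2, RELB, BIRC2 and TNIP1 were each higher in the combination array, and NFKB1, RELA and BCL3 had differences of either sign. At 6 h the median of the 8 tested genes was -0.18, beside a median of -0.27 over all 5820 genes. At 12, 24 and 48 h it was 0.50, 0.64 and 0.72, beside 0.14, 0.04 and -0.02 over all genes. For quinacrine minus erlotinib the medians were 0.12, 0.32 and 0.64 at 6, 12 and 24 h, beside -0.09, 0.06 and 0.07.

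**Figure D2:**
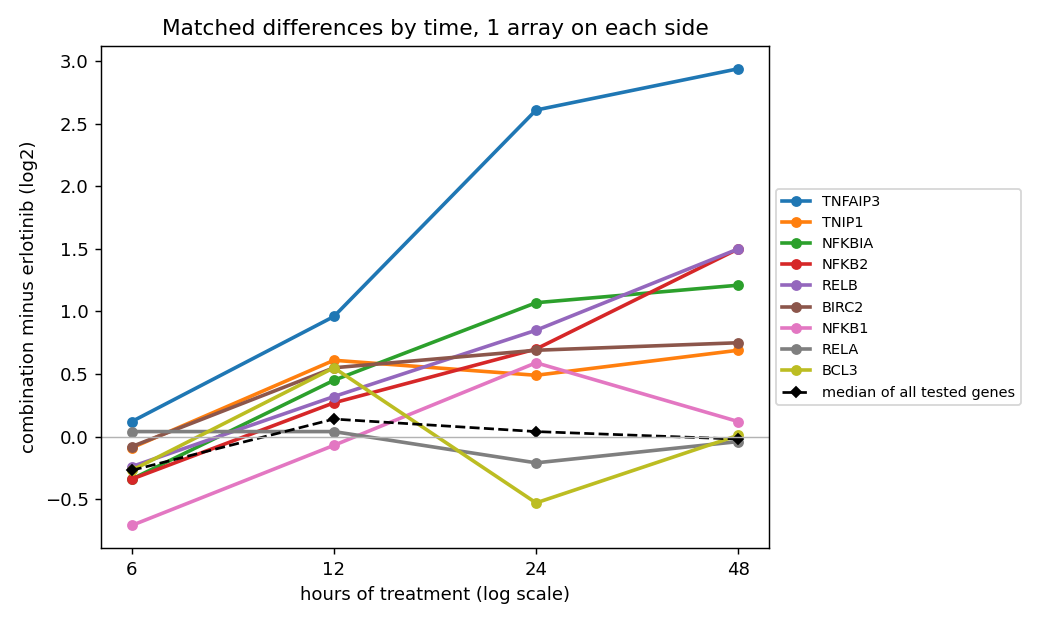
Combination minus erlotinib at the same treatment time (vertical axis, log2 difference of 2 arrays) against time in h (horizontal axis, log scale), with 1 line for each of the 9 genes and a dashed line for the median of all tested genes. TNFAIP3 reaches 2.94 at 48 h and RELA stays between -0.21 and 0.04.

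The 7 arrays with quinacrine were set against the 4 with erlotinib alone. For this the time-adjusted effects of quinacrine and of the combination were averaged with equal weight. TNFAIP3 was 1.60 log2 units higher with quinacrine, or 3.04-fold (SE 0.39, 95% interval 0.72 to 2.49, limma adjusted p = 0.04495 over 5820 genes). It was the only one of the 8 genes past the threshold of 0.05, in a comparison that called 6.65% of all tested genes. An unadjusted p under 0.05 was found for 5 of the 8, beside 23.8% of all tested genes. The call depended on the arrays used: it held without the 6 h erlotinib or the 6 h combination array and was lost without any other single treated array (differences from 1.23 to 2.11, adjusted p from 0.0663 to 0.181 where lost). Without the combination array at 6 h it was 1.74 (adjusted p = 0.0172). Differences for BIRC2 (0.43, SE 0.13, adjusted p = 0.09028), TNIP1 (0.42, SE 0.12, adjusted p = 0.08032), NFKB2 (0.60, SE 0.22, adjusted p = 0.143) and NFKBIA (0.52, SE 0.22, adjusted p = 0.1904) did not pass. Those of NFKB1 (0.05), RELA (-0.15) and BCL3 (-0.01) had intervals that spanned 0, the widest reaching from -0.35 to 0.44. The median of the 8 genes was 0.42, against -0.01 over all tested genes. The 8 were chosen with earlier results of these arrays known, so this contrast is no independent evidence.

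**Figure D3:**
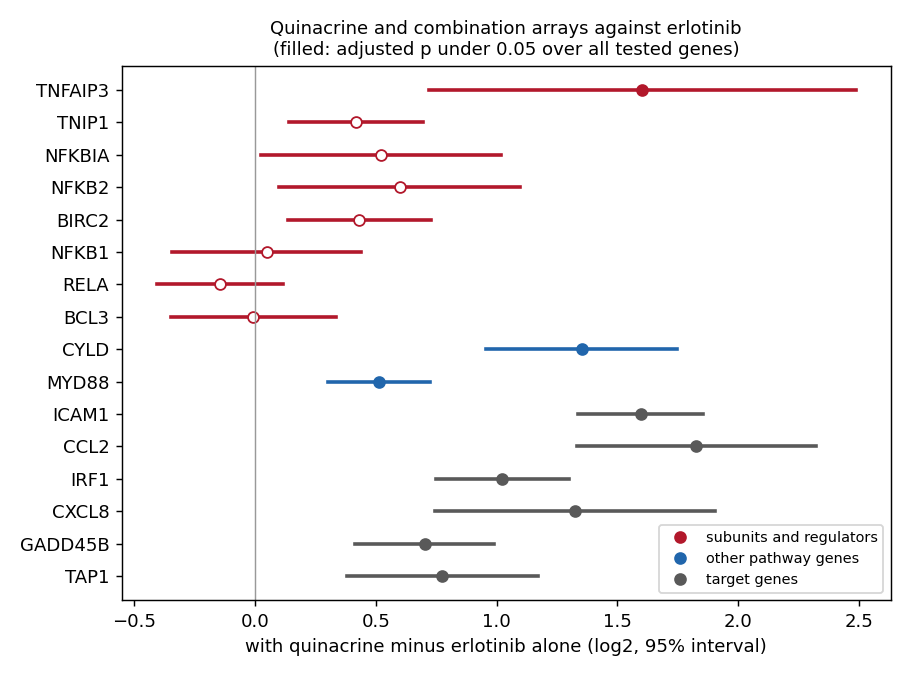
Arrays with quinacrine minus erlotinib alone (horizontal axis, log2 difference, with 95% intervals) for the 8 tested genes and, below them, the other pathway and target genes that passed the threshold. Filled points passed it, TNFAIP3 at 1.60 alone among the 8, and the intervals of NFKB1, RELA and BCL3 span 0.

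Taken separately, neither group with quinacrine gave a call among the 8 genes, and the comparisons share the erlotinib arrays. In the combination against erlotinib, TNFAIP3 was 1.66 higher (SE 0.43, interval 0.68 to 2.64, limma adjusted p = 0.07847), BIRC2 0.48 (adjusted p = 0.1143), TNIP1 0.43 (adjusted p = 0.1267), NFKBIA 0.60 (adjusted p = 0.2111) and NFKB2 0.53 (adjusted p = 0.2566). Of the 8, 0 passed, where 3.64% of all tested genes were called, and 4 had an unadjusted p under 0.05, beside 20.8% of all. In quinacrine against erlotinib TNFAIP3 was 1.55 higher (SE 0.48, adjusted p = 0.1411), 0 of 8 passed in limma, where 1.13% of all genes were called, and 4 had an unadjusted p under 0.05, beside 17.6% of all. Without the erlotinib array at 6 h the combination called 4 of the 8 genes and quinacrine 2, and without the combination array at 6 h the combination called 3. Calls over all genes were more numerous in these fits too: 322 and 257 without the erlotinib array, for the combination and quinacrine, and 294 for the combination without its own array, against 212 and 66 with all arrays. The combination against quinacrine alone gave differences from -0.13 to 0.21, with 0 of 8 called, none with an unadjusted p under 0.05 (0.808% of all genes) and 0% of all genes called. For TNFAIP3 the interval of that difference was -0.99 to 1.20 and for TNIP1 -0.33 to 0.36, so differences anywhere within those bounds remain possible.

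The same arrays were also ordered by level without a model, which gives no separate support. Every array with quinacrine was above every erlotinib array for TNFAIP3 alone of the 8 genes, as for 2.78% of all tested genes. Among arrays of 12 h and later, a window chosen after the values were seen, 5 of the 8 separated in this way (TNFAIP3, NFKBIA, NFKB2, TNIP1 and BIRC2), beside 12.9% of all tested genes. For NFKBIA the margin was narrow, with 8.69 in quinacrine at 12 h and 8.68 in erlotinib at 48 h. At 6 h the erlotinib values were still within 0.16 of the untreated array for each of the 8 genes, and NFKBIA, NFKB2, TNIP1 and BIRC2 overlapped between the groups through arrays of that time.

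Slopes over time were fitted per doubling of treatment time in each group. With the combination, NFKBIA rose by 0.47 per doubling (SE 0.08, limma adjusted p = 0.02393) and NFKB2 by 0.23 (SE 0.06, adjusted p = 0.04739), 2 of 8 genes, where 4.97% of all genes were called and their median slope was 0.08. TNFAIP3 (0.41, SE 0.13, adjusted p = 0.08383) and TNIP1 (0.19, adjusted p = 0.1221) did not pass. The NFKBIA call was lost without the combination array at 6, 24 or 48 h (adjusted p from 0.0727 to 0.272). The NFKB2 call was lost without any treated array other than the combination at 12 h (adjusted p from 0.0504 to 0.416), and its slope was 0.12 after centring each array on its median (adjusted p = 0.217). With erlotinib NFKB2 had a slope of -0.36 (SE 0.06, unadjusted p = 9.535e-05, adjusted p = 0.1103) and TNFAIP3 of -0.60 (SE 0.13, adjusted p = 0.2049). Neither passed, and 0 of 8 were called against 0.0344% of all genes. Both had an unadjusted p under 0.05, as 8.02% of all genes did, and no other gene of the 8 did. With quinacrine alone, over 3 times, NFKBIA had a slope of 0.45 (SE 0.13, adjusted p = 0.2649), with 0 of 8 and 0% of all genes called and 1 of 8 with an unadjusted p under 0.05, beside 10.6% of all genes.

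**Figure D4:**
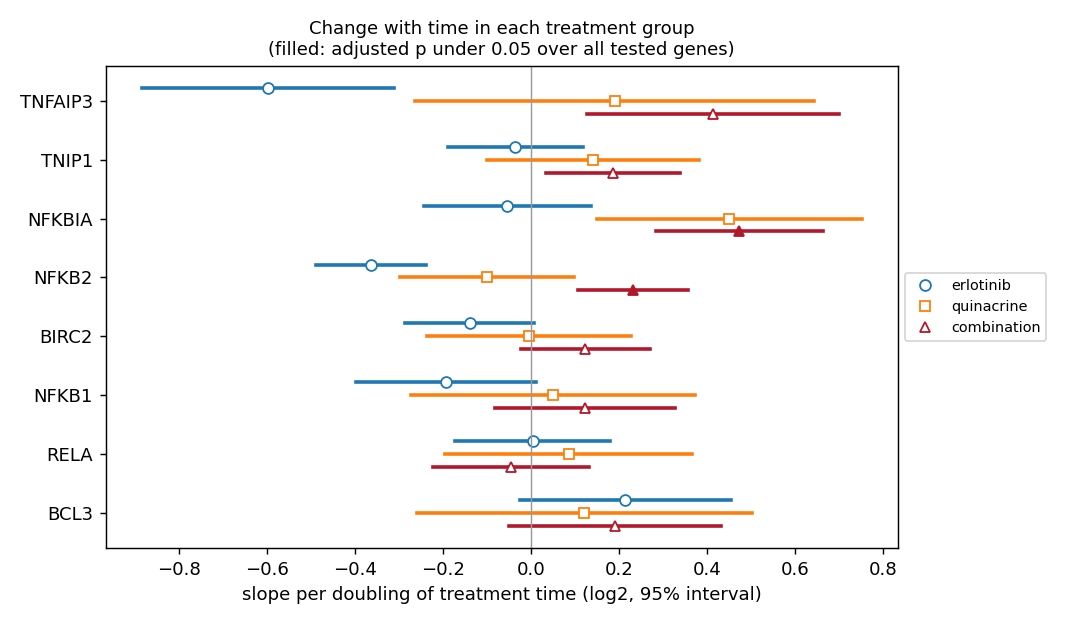
Slope per doubling of treatment time (horizontal axis, log2, with 95% intervals) for the 8 tested genes in each treatment group. Filled points passed the threshold: NFKBIA at 0.47 and NFKB2 at 0.23, both with the combination.

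The difference of the slopes was itself tested. NFKB2 had a slope 0.60 higher per doubling with the combination than with erlotinib (SE 0.08, interval 0.42 to 0.77, limma adjusted p = 0.04916), 1 of 8 genes where 0.103% of all genes (6 genes) were called. This call was lost without any treated array other than the combination at 12 h (differences from 0.53 to 0.63, adjusted p from 0.0719 to 0.257). The slope difference was 1.01 for TNFAIP3 (SE 0.18, adjusted p = 0.1036) and 0.53 for NFKBIA (SE 0.12, adjusted p = 0.1263). NFKB1, BIRC2 and TNIP1 had differences of 0.32, 0.26 and 0.22, and 6 of the 8 had an unadjusted p under 0.05, beside 15.2% of all genes. RELA (-0.05) and BCL3 (-0.02) had intervals that spanned 0. The median over all tested genes was 0.07.

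Against the single untreated array no gene of the 8 passed in any group. The fit gave erlotinib minus untreated as -1.22 for TNFAIP3 (SE 0.62, interval -2.57 to 0.14), -0.54 for NFKB2, -0.35 for both NFKBIA and BIRC2 and -0.18 for TNIP1, with a smallest adjusted p of 0.9987 in limma, 0 of 8 with an unadjusted p under 0.05 and 0% of all genes called (144 had an unadjusted p under 0.05). At single times TNFAIP3 was 0.12, 0.97, 2.00 and 1.77 lower than untreated. The median of the 8 genes was -0.04, -0.36, -0.51 and -0.29 at 6, 12, 24 and 48 h of erlotinib, beside 0.06, -0.06, 0.03 and 0.06 over all tested genes. Quinacrine minus untreated was 0.31 for TNFAIP3 and 0.16 for NFKB2, with a smallest adjusted p of 0.8457, where 0.0344% of all genes were called. The combination minus untreated was 0.44 for TNFAIP3, 0.25 for NFKBIA and -0.01 for NFKB2, with a smallest adjusted p of 0.758, where 0.0515% were called. In both, 0 of 8 had an unadjusted p under 0.05, beside 10.3% and 11.2% of all genes. These comparisons assume for the lone untreated array the spread of the treated ones, and changes with time counted as spread.

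By group mean, TNFAIP3 was ordered combination (7.97 ± 0.57, SD, n = 4), quinacrine (7.84 ± 0.31, n = 3), untreated (7.53, n = 1) and erlotinib (6.32 ± 0.85, n = 4). The combination and quinacrine means were closer than either SD, and the untreated value is 1 array with no spread. All 3 quinacrine arrays of TNFAIP3 lay above it, and the combination arrays lay on both sides. The limma interval for quinacrine minus untreated was -1.09 to 1.71. NFKBIA had the order combination (9.19 ± 0.61), untreated (8.94), quinacrine (8.91 ± 0.49) and erlotinib (8.60 ± 0.22). Its untreated value lay within the spread of the combination and of quinacrine, whose means lay within each other's spread. The quinacrine mean of NFKBIA lay above all 4 erlotinib arrays, while the arrays of both groups overlapped. For NFKB2 the order was quinacrine (7.06 ± 0.12), untreated (6.90), combination (6.89 ± 0.30) and erlotinib (6.36 ± 0.47). All 3 quinacrine arrays of NFKB2 lay above the untreated one, which was within the spread of the combination. The combination and erlotinib means of NFKB2 were further apart than either SD, while their arrays overlapped. Across the 12 arrays, which share treatments and times, TNFAIP3 correlated most with BIRC2 among the 9 genes (Pearson r = 0.944) and with NFKB2 at 0.887, and RELA with NFKB1 was the lowest pair at -0.53. Over all tested genes the patterns most like TNFAIP3 were those of F3 (0.967), PLAUR (0.965) and LAMB3 (0.962), those most like NFKBIA were PNPT1 (0.964), CDCP1 (0.948) and LAP3 (0.941), and those most like NFKB2 were YRDC (0.950), PLEK2 (0.949) and LAMB3 (0.946). These are descriptions over 12 arrays, given without a test.

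Other genes of the pathway formed a list of 50 receptors, adaptors, kinases, inhibitors and deubiquitinases, of which 22 were tested. In the arrays with quinacrine 2 of the 22 were called higher than with erlotinib alone and none lower, a share near the 6.65% called over all genes. The median difference of the 22 was -0.01, equal to that over all genes. The same 2 were called in the combination and CYLD alone in quinacrine. CYLD, a deubiquitinase that removes the chains IKK activation needs, measured 5.10 untreated, 5.15, 4.53, 4.73 and 5.28 with erlotinib, 6.49, 6.27 and 6.15 with quinacrine, and 6.03, 6.59, 6.14 and 6.08 with the combination, and the groups with and without quinacrine did not overlap. It was 1.35 higher, or 2.56-fold (SE 0.17, limma adjusted p = 0.008582), already at 6 h (combination minus erlotinib 0.88), and only leaving out the erlotinib array at 24 h ended the call (adjusted p = 0.0587). The arrays of CYLD without quinacrine averaged under 5 (4.92 with erlotinib, 5.10 untreated). It passed the filter only through the arrays with quinacrine (means of 6.30 and, for the combination, 6.21), so its place among the tested genes depends on them. CYLD also rose in the combination (1.29, adjusted p = 0.01902) and in quinacrine (1.42, adjusted p = 0.02823) against erlotinib, calls that held without 7 and 5 of the 11 single arrays left out in turn. Those that ended the first were erlotinib at 12 and 24 h, quinacrine at 24 h and the combination at 24 h, and those that ended the second were the same and quinacrine at 6 and 12 h (adjusted p up to 0.154). MYD88, the adaptor of Toll-like receptors, was 0.51 higher with quinacrine (adjusted p = 0.02059), a call kept in 3 of 11 such repeats (adjusted p up to 0.0978 where lost, without erlotinib at 12, 24 or 48 h, any quinacrine array or the combination at 24 or 48 h). In the combination MYD88 was 0.53 higher than with erlotinib (adjusted p = 0.03374), a call that these arrays and the combination at 12 h also ended (up to 0.151). MYD88 measured 5.33 untreated, 5.55 to 5.60 with erlotinib, 5.85 to 6.20 with quinacrine and 5.79 to 6.25 with the combination. REL, a further subunit, was 0.30 higher (adjusted p = 0.1463), NFKBIB, an inhibitor, 0.31 (adjusted p = 0.4023), and CHUK, an IKK kinase, had an adjusted p of 0.9973. NFKBIZ, an inducible nuclear IκB protein with a mean of 4.89 under the filter, measured 4.91 untreated, 4.20 to 4.96 with erlotinib, 4.30, 4.68 and 5.74 with quinacrine and 4.0, 4.91, 5.73 and 5.96 with the combination. NFKBIE (3.08 to 4.49) and the IKK components IKBKB (3.99 to 4.93) and IKBKG (4.44 to 4.86) also lay under the filter.

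A list of 32 known NF-kappaB target genes outside the 10 had 13 tested, of which 6 were higher in the arrays with quinacrine than with erlotinib alone and none lower, with a median of 0.70. Over all genes 6.65% were called, with a median of -0.01. They were the adhesion molecule ICAM1 (1.60, limma adjusted p = 0.0008457), the chemokines CCL2 (1.83, adjusted p = 0.005876) and CXCL8 (1.33, adjusted p = 0.02264), the transcription factor IRF1 (1.02, adjusted p = 0.005876), the stress gene GADD45B (0.70, adjusted p = 0.02059) and the peptide transporter TAP1 (0.78, adjusted p = 0.03595). ICAM1, CCL2 and IRF1 kept the call in all 11 repeats that left out 1 array. CXCL8 and GADD45B kept it in 3, losing it without erlotinib at 12, 24 or 48 h, any quinacrine array or the combination at 24 or 48 h, and TAP1 in 2, losing it also without the combination at 12 h (adjusted p up to 0.15). Against erlotinib the combination called 5 of the 13 (those 6 without TAP1) and quinacrine alone 3 (ICAM1, CCL2 and IRF1), none lower in either, beside 3.64% and 1.13% of all genes. There ICAM1 lost its call without quinacrine at 24 h (quinacrine, adjusted p = 0.0661) and in no repeat for the combination. CCL2 and IRF1 lost the combination call without any erlotinib or combination array of 12 h or later, and the quinacrine call without erlotinib at 12 or 24 h or any quinacrine array. CXCL8 and GADD45B lost the combination call without any single array other than the 6 h erlotinib and 6 h combination arrays (adjusted p up to 0.154 in all of these). Against the single untreated array the medians of the 13 were -0.32 with erlotinib, 0.39 with quinacrine and 0.44 with the combination. Over all tested genes they were 0.0225, 0.02 and -0.005. None of the 13 was called in these comparisons, beside 0%, 0.0344% and 0.0515% of all genes. CXCL8 and IRF1 averaged under 5 without quinacrine (4.46 and 4.69 untreated, 4.39 and 4.85 with erlotinib). They passed the filter, at means of 5.14 and 5.41, only through the arrays with quinacrine. The counts, the absence of lower genes and the medians of the 13 thus depend in part on that filter. The list was drawn up with earlier results of these arrays known, so its direction is no independent evidence.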

How the data were processed

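Per the labels' protocols and the submitters' processing notes, the authors hybridised total RNA to 12 arrays and used Affymetrix Expression Console 1.30 with RMA. The deposited values are log2 expression levels and were used without further normalization. All 12 columns were matched to samples by their labels. Gene symbols came from the platform annotation (23871 of 53617 rows had 1 symbol, 1842 several, 27904 none), and 22569 rows were matched to current names by Entrez ID, with 90 symbols changed. The row with the highest mean was used where a gene had several.

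Genes with a mean of at least 5 were tested with limma 3.58.1 (R 4.3.3), and p-values were adjusted by Benjamini-Hochberg over the 5820 genes (threshold 0.05). Treatments were compared in a model of the 11 treated arrays on group and time, both as factors, and slopes in a fit of the same arrays with log2 time per group (5 residual degrees of freedom each). The difference of arrays with quinacrine from erlotinib alone was the mean of the quinacrine and combination effects, weighted equally. Comparisons with the untreated array used group means over all 12 arrays (8 residual degrees of freedom). Between treatments the residual is the departure from additive effects of group and time. In the slope fit it is the departure from a straight line in log2 time for each group, and against untreated it includes all change with time. In no fit is it replicate error, and the number of arrays limits the precision. The scripts were tested on simulated data. Genes named in the text were the 10 members, the pathway and target genes past the threshold, REL, NFKBIB, NFKBIE, NFKBIZ, CHUK, IKBKB and IKBKG, and the 3 genes most like each of TNFAIP3, NFKBIA and NFKB2. The members and lists were chosen with earlier results of these data known. Alternatives were other filters, normalizations, priors, weights, time terms and arrays left out.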

Additional observations from a re-analysis of the deposited data

Results flagged for a closer look

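NFKB2's change over time differed between treatments by a test of the difference itself: its slope per doubling of time was 0.595 log2 units higher with the combination than with erlotinib (limma adjusted p = 0.04916), and 4 of 21 alternatives kept that call.

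For 3 genes every erlotinib array lay below the untreated array and every quinacrine array above it, as for 1.27% of all tested genes (74 of 5820). The difference between the groups in this respect was not tested, and all values are set against the same 1 untreated array. Mean erlotinib and quinacrine differences from untreated were -1.215 and 0.307 for TNFAIP3, -0.543 and 0.163 for NFKB2 and -0.175 and 0.197 for TNIP1. The single difference nearest to 0 was -0.01 with erlotinib, for TNIP1 at 6 h, and 0.02 with quinacrine, for TNFAIP3 at 12 h. The combination did not lie above untreated at 6 h for any of the 3 genes, nor at 12 h for TNFAIP3 and NFKB2. Its differences from untreated at 6 and 12 h were 0.00 and -0.01 for TNFAIP3 and -0.37 and -0.09 for NFKB2. For TNIP1 they were -0.10 and 0.26. Over all tested genes the medians of these differences were -0.21 at 6 h, in the array that stood apart, and 0.08 at 12 h. At 24 and 48 h the combination lay above untreated for all 3 genes.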

How the results depend on the processing

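Counts below are of the 8 tested genes past the threshold. The combination against erlotinib called 0 as reported, 1 with a filter at a mean of 6, a trended robust prior or no time term, 3 with cyclic loess, median centring or array weights (whose estimation did not fully converge), 2 without both the 6 h combination and the 12 h erlotinib array (added after seeing the data), and 0 to 4 when each array was left out in turn. Quinacrine against erlotinib called 0, 3 with array weights and 0 to 2 with arrays left out. Arrays with quinacrine against erlotinib alone called 1, 0 without a filter, with a filter at 4 or with the 6, 12 and 24 h arrays, 3 with loess, centring or without the 6 h and 12 h arrays named above, 5 with weights, 2 with no time term and 0 to 4 with arrays left out. The erlotinib slope called 0, and 1 (NFKB2) with a filter at 6 or a trended prior. The quinacrine slope called 0, and 1 (NFKBIA) with weights. The combination slope called 2, 1 with a filter at 4, loess or centring, and 0 without a filter, with weights, with times to 24 h, with time on a linear scale or without those 2 arrays, and 0 to 2 with arrays left out. The slope difference called 1, 2 (NFKB2 and TNFAIP3) with a trended prior, 0 without a filter, with a filter at 4, loess, centring, weights, times to 24 h, linear time or without those 2 arrays, and 0 to 2 with arrays left out. The combination against quinacrine and the 3 comparisons with the untreated array called 0 under each alternative run. Beyond the smaller or larger number of genes or arrays in these fits, the cause of the changes was not tested. Of 1925 member values recomputed, 80 changed sign, 0 of them called in either fit (reported values up to 0.19). TNFAIP3 in the arrays with quinacrine ranged from 1.23 to 2.11 and was called in 10 of 22 alternatives (adjusted p from 0.00713 to 0.181). NFKBIA's combination slope was called in 14 of 21 (0.006 to 0.272), and NFKB2's combination slope and slope difference in 4 of 21 each (0.0309 to 0.416 and 0.0248 to 0.279), time on a linear scale, in another unit, aside. Over all genes the counts called moved widely across alternatives: 25 to 803 for the arrays with quinacrine (387 as reported, lowest without the 24 h erlotinib array, highest with weights), 6 to 461 for the combination against erlotinib (212, highest with loess), 0 to 682 for quinacrine against erlotinib (66), 0 to 921 for the combination slope (289), 0 to 279 for the quinacrine slope (0), 0 to 110 for the slope difference (6), 0 to 20 for the erlotinib slope (2), and 0 to 809 and 0 to 494 for the combination and quinacrine against untreated (3 and 2, both highest with weights). The labels give no replicate numbers, so arrays could be matched by time alone. Time as a factor did this in the comparisons between treatments. With 1 untreated array, that array could not be left out of its comparisons.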
